A study of Mus musculus with 2 samples.

Results

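Transcripts of 10 genes of the NF-kB pathway were counted across cell types of fat from obese mice. They are the subunits Nfkb1, Rel and Relb, the inhibitors Nfkbia, Nfkbiz and Tnfaip3, the ligand Tnf and its receptor Tnfrsf1b, and the adhesion molecules Icam1 and Vcam1. The members were taken by symbol, and all 10 were found once each among the 32285 genes of both libraries. The members and the other gene lists below were chosen with earlier results of these data known. Their counts beside shares of all genes therefore only describe. The study made single-cell 3' RNA libraries of epididymal fat after its adipocytes were taken away, the stromal vascular cells. 1 library came from Camk2d myeloid conditional knockout mice (Camk2d-CKO) and 1 from wild-type mice, both after 10 weeks of high-fat diet. Camk2d encodes a chain of a calcium-dependent protein kinase, and the driver of the myeloid deletion, the age of the mice and the number of mice behind each library were not given in the sources used here.

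NF-kB transcription factors are dimers of related subunits that wait in the cytoplasm, bound by inhibitors such as the product of Nfkbia, until cytokine or microbial receptors switch on a kinase that has the inhibitor destroyed. The freed dimers enter the nucleus and switch on inflammatory genes, together with their own inhibitors, which close a negative feedback loop. In obese fat, macrophages are known as a main source of Tnf, and the adhesion molecules Icam1 and Vcam1 let integrin-bearing leucocytes attach to other cells.

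The promoters were read for kB motifs, the letters that NF-kB dimers bind. RefSeq promoters (GRCm38.p6, the 250 bases before the start) were found for 6 of the 10 members, and Tnfaip3 had 2. Nfkb1, Relb, Nfkbiz and Vcam1 had no entry. The promoters found were searched on both strands for the 10-letter kB consensus, held by 3.90% of all 32851 promoters, and for GGAAANNCC, held by 4.93%. The motifs overlap, and 7.74% of promoters held either. Because the motifs were chosen after the members' promoters were seen, these shares are no fair measure for the members' matches. Promoters of 4 members held a match and are shown 5' to 3' because they belong to a subunit, both feedback inhibitors found in the table and an adhesion target; capitals mark the matched letters.
Rel, chr11:23770970-23771219, minus strand: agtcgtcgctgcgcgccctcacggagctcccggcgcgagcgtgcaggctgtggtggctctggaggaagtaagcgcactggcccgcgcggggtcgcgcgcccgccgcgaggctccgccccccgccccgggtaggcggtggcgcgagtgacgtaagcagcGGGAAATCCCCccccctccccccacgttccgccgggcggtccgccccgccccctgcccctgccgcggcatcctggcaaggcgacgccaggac
Nfkbia, chr12:55492648-55492897, minus strand: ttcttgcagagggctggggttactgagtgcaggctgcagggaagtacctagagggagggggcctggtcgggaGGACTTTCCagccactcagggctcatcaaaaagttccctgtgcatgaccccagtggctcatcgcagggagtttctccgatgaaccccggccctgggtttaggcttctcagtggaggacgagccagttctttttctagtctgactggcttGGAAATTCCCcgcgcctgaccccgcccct
Tnfaip3, chr10:19015411-19015660, minus strand: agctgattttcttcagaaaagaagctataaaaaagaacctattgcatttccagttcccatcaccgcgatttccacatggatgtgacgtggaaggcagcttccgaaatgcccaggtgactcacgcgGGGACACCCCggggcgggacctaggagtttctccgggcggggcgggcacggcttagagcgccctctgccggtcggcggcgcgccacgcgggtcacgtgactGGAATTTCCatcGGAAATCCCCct
Icam1, chr9:21015690-21015939, plus strand: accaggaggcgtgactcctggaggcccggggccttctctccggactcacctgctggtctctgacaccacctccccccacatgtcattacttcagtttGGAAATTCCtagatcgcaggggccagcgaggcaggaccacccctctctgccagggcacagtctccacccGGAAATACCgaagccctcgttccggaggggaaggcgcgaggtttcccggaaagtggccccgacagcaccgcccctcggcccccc
In Rel the matches lay 82 to 92 bases before the start, and in Nfkbia the nearer match lay 20 to 29 bases and the farther one 170 to 178 bases before it. The Tnfaip3 matches lay 116 to 125, 16 to 24 and 3 to 12 bases upstream. Icam1 held a pair of GGAAANNCC matches, at 145 to 153 and 76 to 84 bases. The promoters of Tnf, of Tnfrsf1b and of the downstream start of Tnfaip3 held none of these letters in this window. A match is a run of letters and not a measured binding site.

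Cell types were taken from marker genes, none of them a member. A cell entered a gate when its markers reached a set share of its UMIs (unique molecular identifiers, each a counted transcript molecule) and markers of other lineages did not. Of 9635 knockout and 15332 wild-type barcodes that passed the filters, 72.8% and 52.5% took a gate. The macrophage gate held 1171 knockout and 2308 wild-type cells, the adipose progenitor gate 3574 and 2625, the T gate 1142 and 983, the B gate 369 and 590, the natural killer gate 183 and 233, and the type 1 dendritic gate 101 and 200. Check genes that no gate used fitted these names: Cd68, Csf1r, Lgmn, Cd14, Trem2 and Aif1 summed to 4189 and 4309 CPM (UMIs scaled to a total of 1000000 per gate) in macrophage-gated cells and to 101 and 292 CPM in progenitor-gated cells. The libraries differed in depth and in free RNA, the transcripts of broken cells caught in any droplet. Median UMIs per cell that passed were 8315 (knockout) and 3134 (wild type), and 48 barcodes occurred in both libraries. Estimated from markers of other lineages, free RNA made up 4.67% of the UMIs of knockout macrophage-gated cells, 11.0% of those of the wild type, and 6.01% and 27.1% in the erythroid gate. The erythroid gate (165 and 782 cells), red cells with little RNA of their own, served as the background for the members. Camk2d itself stood at 26.1 CPM in knockout and 47.5 CPM in wild-type macrophage-gated cells (log2 ratio -0.86, -1.04 to -0.69), and at 54.8 and 53.6 CPM in T-gated cells (log2 0.03, -0.21 to 0.28). Since transcripts were counted from their 3' end and the deleted part of the gene is not given in the sources used here, this level bears on the label only in part. As each genotype is 1 library, differences between them could not be tested. All intervals are 95% and cover counting error only, and differences are described by size: a gene was counted as higher or lower when the libraries differed at least 1.5-fold with at least 10 CPM and 30 UMIs in the higher one.

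**Figure D1:**
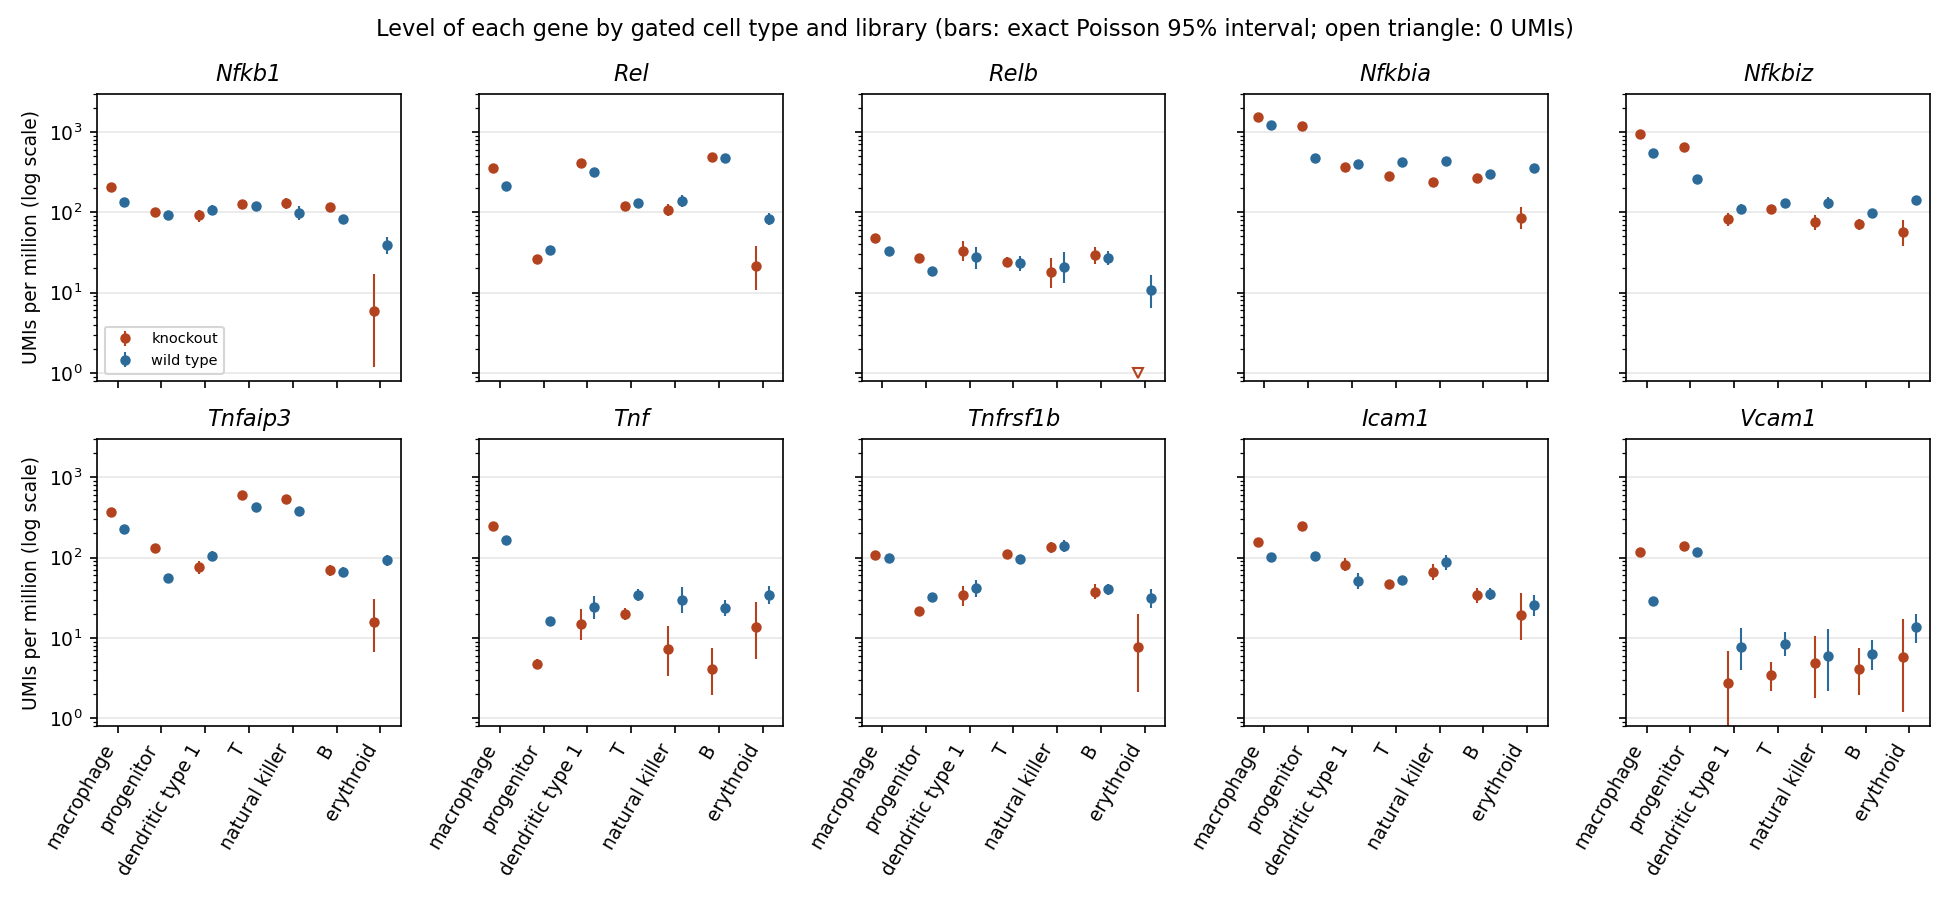
Level of each of the 10 genes in 7 gated cell types (horizontal axis) in CPM on a log axis, with the knockout library in red and the wild-type library in blue and bars for the exact Poisson 95% interval. Rel is highest in B-gated cells (485 and 471 CPM), Tnfaip3 in T-gated cells (595 and 429 CPM), and Vcam1 stays under 14 CPM outside macrophage-gated and progenitor-gated cells.

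Across cell types the subunits had different homes. Rel (chr11:23736847-23770970, minus strand of GRCm38), the lymphoid and myeloid subunit c-Rel, stood at 485 CPM in knockout and 471 CPM in wild-type B-gated cells, at 409 and 314 CPM in type 1 dendritic cells, and at 350.3 and 213 CPM in macrophage-gated cells. In progenitor-gated cells it was at 26.2 and 34.1 CPM, beside 21.4 and 82.3 CPM in erythroid-gated cells. Only the wild-type level thus lay below the erythroid one. Nfkb1 (chr3:135584655-135691547, minus strand), which encodes the p50 precursor, was spread more evenly: its 12 values in the 6 larger gates besides the erythroid one ran from 82.2 CPM in wild-type B-gated to 203 CPM in knockout macrophage-gated cells. Over both libraries, the Nfkb1 range of T-gated cells (119 to 127 CPM) lay above those of type 1 dendritic, B and progenitor gates. The latter gates could not be put in order, since their ranges overlapped. The natural killer range overlapped theirs and that of T-gated cells. Relb (chr7:19606217-19629438, minus strand), the subunit of the slower non-canonical arm, had its highest mean of both libraries among these gates in macrophage-gated cells, at 47.6 and 32.9 CPM, with 18.0 to 33.4 CPM in the other 5, a range that overlaps it.

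The inhibitors followed another order. Nfkbia (chr12:55489410-55492647, minus strand) encodes the inhibitor that holds dimers in the cytoplasm, and stood at 1533 and 1225 CPM in macrophage-gated cells, at 1172 and 475 CPM in progenitor-gated cells and between 236 and 429 CPM in the other 4 gates. Wild-type erythroid-gated cells held 353 CPM of Nfkbia, near the wild-type lymphocyte levels of 298 to 429 CPM. Free RNA was estimated at 30.8% to 35.5% of these lymphocyte levels. In the knockout, lymphocyte gates held 236 to 283 CPM of Nfkbia and erythroid-gated cells 85.7 CPM. There free RNA was estimated at 19.6% to 35.3% of the lymphocyte levels. Nfkbiz (chr16:55811375-55838899, minus strand), a nuclear relative that helps switch on secondary response genes such as Il6, was likewise highest in macrophage-gated (949 and 541 CPM) and progenitor-gated cells (642 and 259.9 CPM). Its 70.7 to 132 CPM in lymphocyte gates lay between the erythroid levels of 56.5 and 141 CPM. Tnfaip3 (chr10:19000910-19015657, minus strand), the ubiquitin-editing enzyme A20, was highest in lymphocytes: 595 and 429 CPM in T-gated and 542 and 384 CPM in natural killer-gated cells, whose ranges overlapped, against 369 and 229 CPM in macrophage-gated and 69.4 and 66.7 CPM in B-gated cells.

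Tnf (chr17:35199381-35202007, minus strand) had a single main source among the larger gates. Macrophage-gated cells held 245 CPM (knockout) and 164 CPM (wild type), and 62.7% and 49.7% of all Tnf UMIs of cells that passed. All other large gates had 4.11 to 34.3 CPM, in the range of the erythroid levels of 13.6 and 34.4 CPM or below it. Tnfrsf1b (chr4:145213463-145246870, minus strand), the second Tnf receptor, was at 135 and 141 CPM in natural killer-gated, 109 and 99.2 CPM in macrophage-gated and 109.7 and 96.8 CPM in T-gated cells, and at 21.7 to 41.6 CPM in B-gated, type 1 dendritic and progenitor-gated cells. The macrophage and T levels of Tnfrsf1b overlapped, while those of natural killer cells lay above both.

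Among the larger gates, both adhesion molecules were highest in progenitor-gated and macrophage-gated cells. Icam1 (chr9:21015985-21028817, plus strand), the ligand of beta-2 integrins, stood at 249.99 and 106 CPM in progenitor-gated and 157 and 101 CPM in macrophage-gated cells, and these ranges overlapped. It was at 34.1 to 87.0 CPM in the other 4 gates. Vcam1 (chr3:116109949-116129688, minus strand), the ligand of the alpha-4 integrins, was at 138 and 116 CPM in progenitor-gated and 117 and 29.2 CPM in macrophage-gated cells. In the lymphocyte and type 1 dendritic gates it had 2.72 to 8.45 CPM, at or below the wild-type erythroid level of 13.5 CPM. Progenitor-gated cells held 60.9% of knockout and 59.5% of wild-type Vcam1 UMIs.

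Some small gates ranked above the large ones, with few cells behind them. In 28 knockout and 23 wild-type mast-gated cells, Nfkbiz stood at 1978 CPM (1628 to 2380) and 1673 CPM (1352 to 2048), Nfkb1 at 600.3 and 481 CPM, and Tnf at 353 and 196 CPM from 20 and 11 UMIs. These put mast cells first among the 12 gates with at least 20 cells in each library for Nfkb1, Nfkbiz, Tnfaip3 and Tnf, with a range over both libraries clear of the next gate for Nfkb1 and Nfkbiz. Type 2 dendritic cells (21 and 35 cells) came first for Rel at 863 and 651 CPM, clear of the next gate. They also came first for Relb, Nfkbia and Icam1, with Relb at 56.6 and 63.4 CPM (16 and 15 UMIs) clear of the next gate. Monocytes (73 and 77 cells) came first for Tnfrsf1b at 168 and 128 CPM, in a range that overlapped natural killer cells, and next after type 2 dendritic cells for Rel at 639 and 424 CPM, in a range that overlapped B-gated cells. The 17 and 34 type 2 innate lymphoid cells held 1565 and 728 CPM of Nfkb1 and 2499 and 2009 CPM of Nfkbia, but they also carried 698 and 622 CPM of macrophage check genes, whose part in these levels was not tested.

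**Figure D2:**
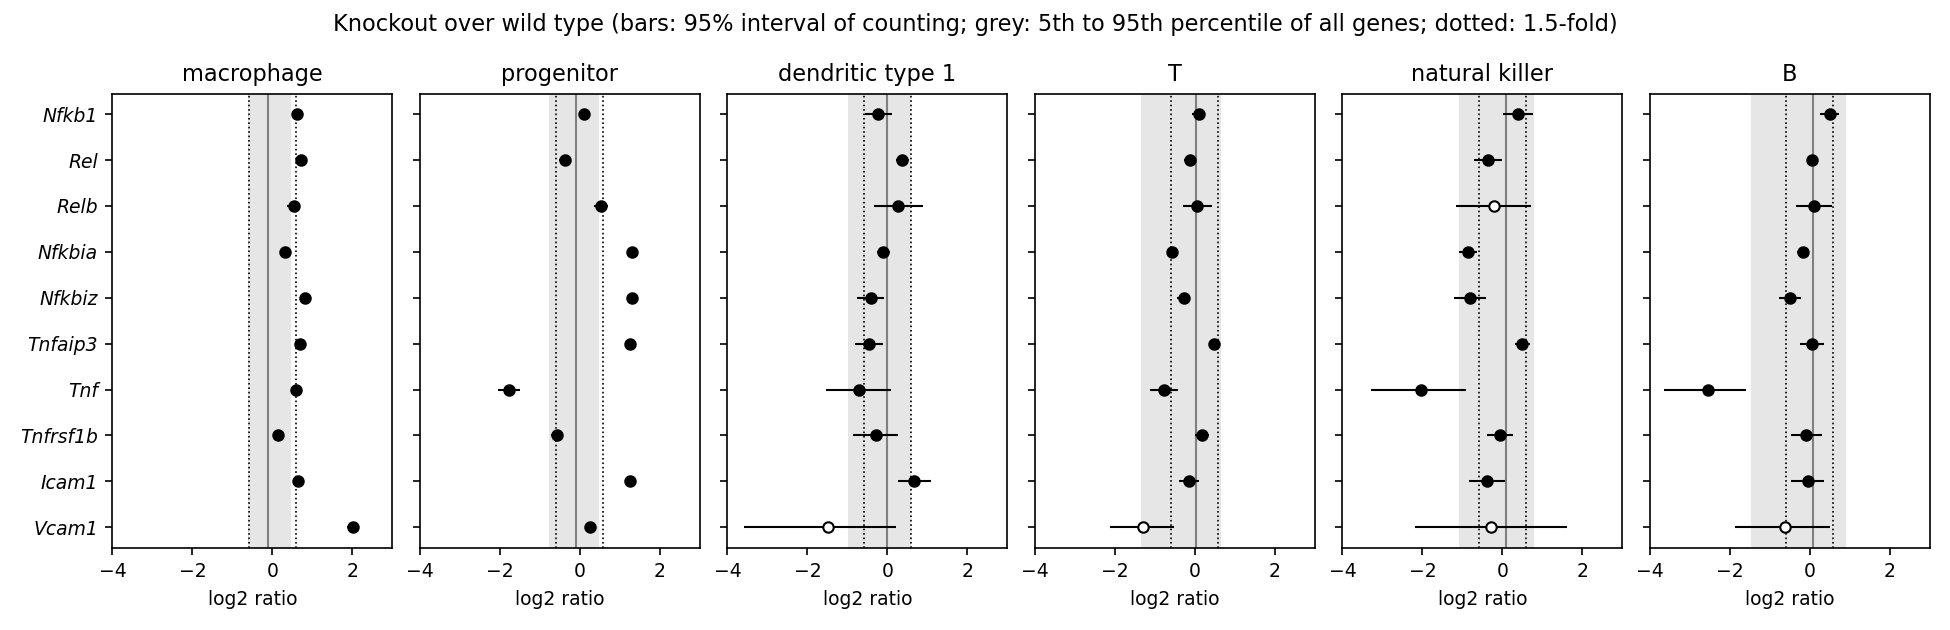
Log2 ratio of knockout over wild type (horizontal axis) for each gene in 6 gated cell types, with bars for the 95% counting interval, a grey band for the 5th to 95th percentile of all genes counted in that gate, a line at their median and dotted lines at 1.5-fold. Open points are members under 10 CPM or 30 UMIs. In macrophage-gated cells all 10 points lie right of 0, and in progenitor-gated cells Nfkbia, Nfkbiz, Tnfaip3 and Icam1 lie past 1 while Tnf lies at -1.77.

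Macrophages are the main myeloid cells of this fat, the lineage in which Camk2d was to be deleted. In macrophage-gated cells all 10 members were higher in the knockout library, 7 of them at least 1.5-fold, and none was lower by that much. Over all 7615 genes with enough UMIs there, 3.1% were higher and 4.92% lower by the same limit. The median log2 ratio of the members was 0.62, and that of all genes -0.10, with a 5th and 95th percentile of -0.58 and 0.44.

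Vcam1 had the largest difference, at 117 CPM (112 to 123) in knockout and 29.2 CPM (26.7 to 31.9) in wild-type macrophage-gated cells, a log2 ratio of 2.003 (1.86 to 2.15). Check genes of progenitors summed to 88.0 CPM in knockout and 204 CPM in wild-type macrophage-gated cells, and their part in the Vcam1 levels was not tested. Free RNA was estimated at 3.86% of the knockout and 18.2% of the wild-type Vcam1 level. The difference was also present in each kind of macrophage. Cells with high lipid-handling markers such as Trem2, Gpnmb and Spp1 (lipid-associated, 290 and 804 cells) had 98.9 and 33.6 CPM. Cells with Lyve1, Cd163 and Folr2 (resident, 405 and 518 cells) had 95.4 and 16.8 CPM, and the remaining macrophages (476 and 986 cells) 155 and 30.3 CPM. No knockout interval reached a wild-type one in any of the 3.

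Vcam1 transcripts were unevenly spread over these cells. The tenth of macrophage-gated cells with the most Vcam1 held 76.0% of its knockout and 96.6% of its wild-type UMIs, with up to 60 UMIs in 1 knockout cell and up to 33 in 1 wild-type cell. After each cell was thinned to 2000 UMIs, 14.3% (12.3% to 16.6%) of 1075 knockout and 4.17% (3.35% to 5.13%) of 2060 wild-type cells had a Vcam1 UMI. Unthinned shares were 31.5% and 10.7%, at median depths of 11730 and 6324.5 UMIs. In erythroid-gated cells, at median depths of 2328 and 2038 UMIs, the thinned shares were 1.03% and 2.69%. Both macrophage shares were larger, the wild-type one by a small margin that was not tested.

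The subunits and inhibitors differed by less. Nfkbiz stood at 949 and 541 CPM (log2 0.81, 0.77 to 0.85) and was higher in the knockout in lipid-associated (581 and 306 CPM), resident (1286 and 988 CPM) and remaining macrophages (1015 and 632 CPM). Rel was at 350.3 and 213 CPM (log2 0.72, 0.66 to 0.78) and Tnfaip3 at 369 and 229 CPM (log2 0.69, 0.63 to 0.75). Nfkb1, at 203 and 134 CPM (log2 0.61, 0.53 to 0.68), and Tnf, at 245 and 164 CPM (log2 0.59, 0.52 to 0.66), were just past the 1.5-fold limit. Just short of it was Relb at 47.6 and 32.9 CPM (log2 0.53, 0.37 to 0.69). Nfkbia, the first inhibitor, was at 1533 and 1225 CPM (log2 0.32, 0.30 to 0.35), and Tnfrsf1b at 109 and 99.2 CPM (log2 0.14, 0.04 to 0.24). Icam1 stood at 157 and 101 CPM (log2 0.64, 0.55 to 0.73), with 134 and 87.7 CPM in lipid-associated, 154 and 99.96 CPM in resident and 184 and 123 CPM in remaining macrophages.

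The count was smaller among cells of like depth. Among macrophage-gated cells with 4000 to 12000 UMIs (431 and 1254 cells), 3 of the 10 were at least 1.5-fold higher: Vcam1 (log2 2.28), Rel (0.71) and Nfkbiz (0.61). There Tnf had a log2 ratio of 0.26, Nfkbia -0.01 and Tnfrsf1b -0.11. With a doubled marker threshold (879 and 1416 cells), 4 were past the limit: Vcam1 (log2 2.22), Nfkbiz (0.69), Rel (0.66) and Tnfaip3 (0.63). With each kind of macrophage weighted equally 5 were past it, as Nfkbiz (log2 0.58) and Nfkb1 (0.56) fell just short. Both other scalings gave 8, adding Relb (0.66). Each of the 10 but Nfkbia and Tnfrsf1b was higher in the knockout under every alternative run.

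Other genes of the pathway were counted from 8 lists of 69 genes, and differences between the lists were not tested. Of the 56 that had enough UMIs in macrophage-gated cells, 16 were higher past the limit and 0 lower, beside 3.1% and 4.92% of all genes, with a median log2 ratio of 0.29. Target genes held the most of these, 6 of 11. The cytokine Il1b stood at 966 and 338 CPM (log2 1.51, 1.47 to 1.56), and the chemokine Cxcl10 at 43.6 and 8.64 CPM (log2 2.33, 2.08 to 2.60). Among brakes on the pathway 3 of 8 were higher, with Zfp36, which has inflammatory mRNAs degraded, at 1604 and 888 CPM (log2 0.85, 0.82 to 0.88). The count was 2 of 4 for other inhibitors, where the nuclear coactivator Bcl3 was at 58.6 and 35.8 CPM (log2 0.71, 0.56 to 0.86). It was 2 of 13 for adaptors, with Birc3 at 109.6 and 61.3 CPM (log2 0.84), and 2 of 6 for receptors and ligands, with Tnfsf9 at 105 and 47.4 CPM (log2 1.15). None of the 5 kinases with enough UMIs was past 1.5-fold, with Tab2 at 91.5 and 81.4 CPM, and neither other subunit was, with Rela at 92.7 and 73.7 CPM (log2 0.33, 0.22 to 0.44). Among adhesion genes and integrins 1 of 7 was higher, Icam2 at 12.5 and 4.26 CPM, while the common integrin chain Itgb1 was at 351 and 353 CPM.

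Immediate early genes, which cell dissociation can switch on within the time of a digestion, were set beside these values. In macrophage-gated cells Fos, Fosb, Jun, Junb, Egr1, Ier2, Atf3 and Dusp1 summed to 9778 CPM (knockout) and 9564 CPM (wild type), and 0 of the 8 differed at least 1.5-fold. This list was chosen after earlier values were seen.

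Progenitor-gated cells, the stromal cells from which new adipocytes arise, are not myeloid, and their Camk2d stood at 92.1 and 100.03 CPM (log2 -0.12, -0.20 to -0.04). Their inhibitors had larger ratios than those of macrophage-gated cells. Past the 1.5-fold limit, 4 of 10 members were higher in the knockout and 1 lower, where 3.18% of 8292 genes were higher and 7.92% lower. Nfkbia stood at 1172 CPM (1161 to 1183) and 475 CPM (465 to 485), which is a log2 ratio of 1.30 (1.27 to 1.34). Nfkbiz was at 642 and 259.9 CPM (log2 1.31, 1.26 to 1.35), Tnfaip3 at 131 and 55.0 CPM (log2 1.25, 1.15 to 1.35) and Icam1 at 249.99 and 106 CPM (log2 1.24, 1.17 to 1.31). The subunits were closer, with Nfkb1 at 101 and 93.3 CPM (log2 0.11, 0.03 to 0.20), Relb at 27.0 and 18.7 CPM (log2 0.53, 0.35 to 0.71; past the limit at 0.67 and 0.70 with both other scalings) and Rel at 26.2 and 34.1 CPM (log2 -0.38, -0.53 to -0.24). Vcam1 was at 138 and 116 CPM (log2 0.25, 0.18 to 0.33), so the adhesion pair did not differ alike: the intervals of their ratios were apart in these cells, as they were in macrophage-gated cells, where Vcam1 had the larger ratio.

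**Figure D3:**
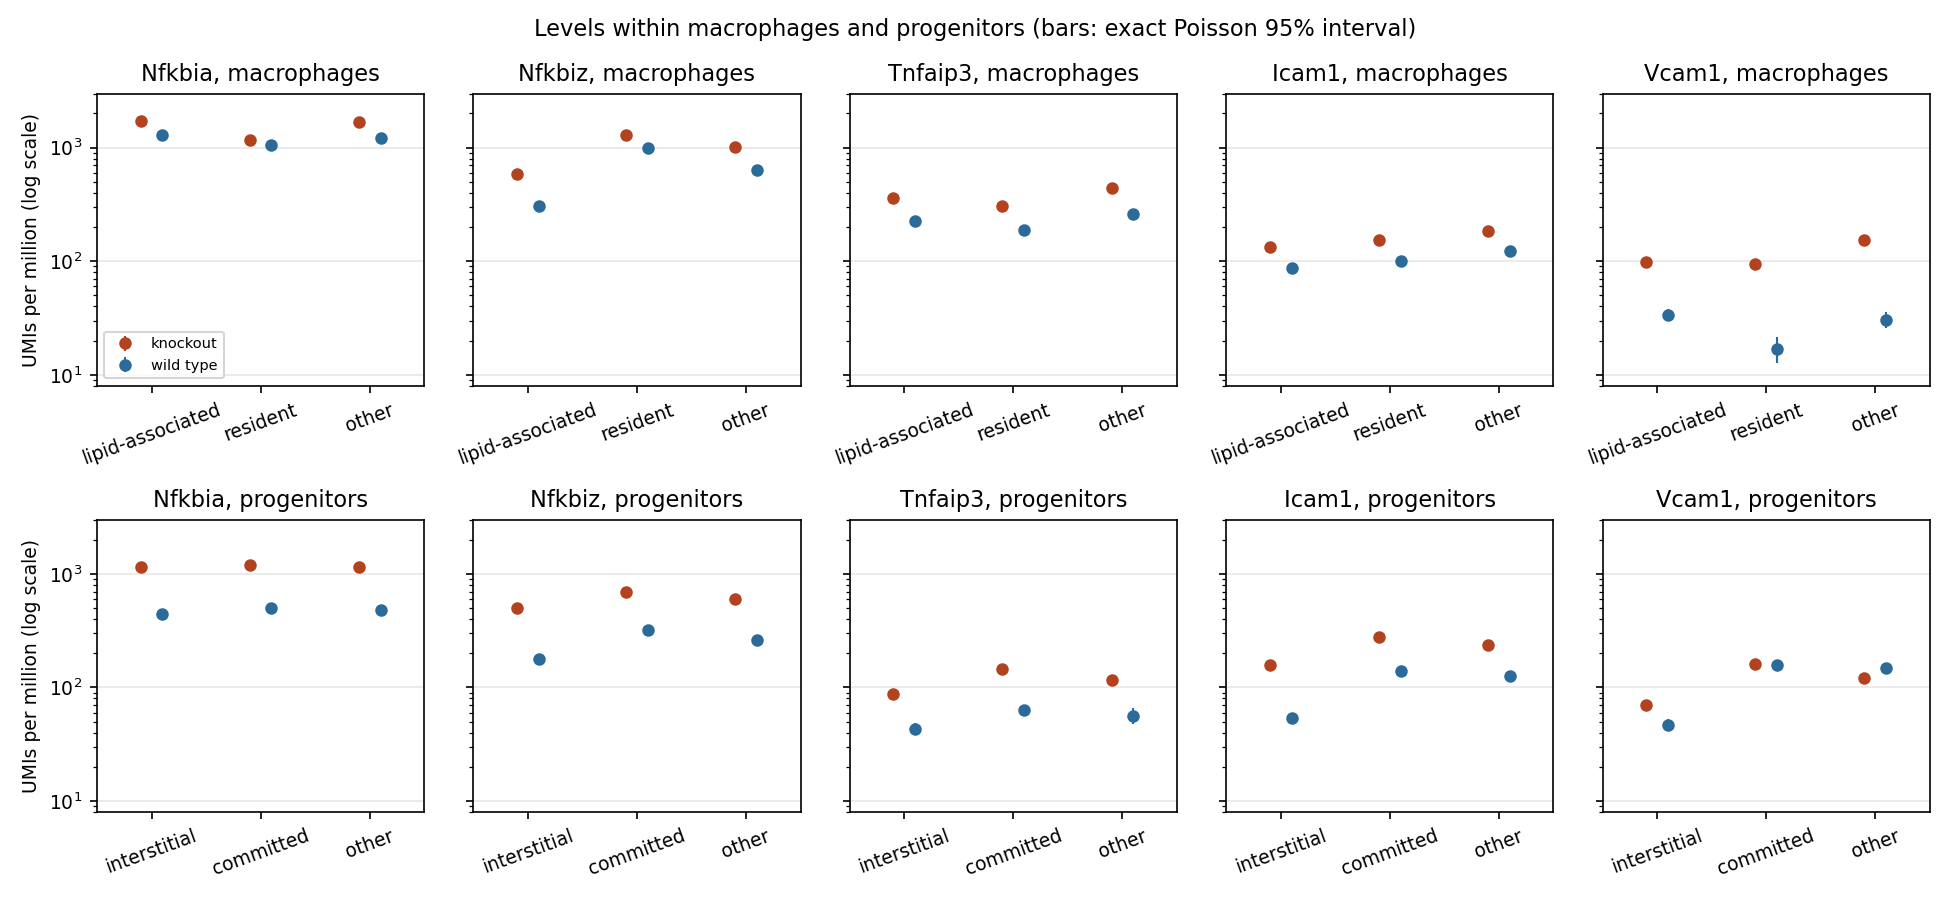
Levels of Nfkbia, Nfkbiz, Tnfaip3, Icam1 and Vcam1 (CPM, log axis) in 3 kinds of macrophages (upper row) and 3 kinds of progenitors (lower row), knockout in red, wild type in blue, with exact Poisson 95% intervals. The knockout point lies above the wild-type point in each panel and kind except for Vcam1 in the remaining progenitors (121 and 147 CPM), and for Vcam1 in committed progenitors both points nearly meet (161 and 159 CPM).

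Both main kinds of progenitor shared the difference. Interstitial progenitors, marked by Dpp4 and Pi16 (555 and 886 cells), had Nfkbia at 1143 and 445 CPM, Nfkbiz at 505 and 177 CPM, Tnfaip3 at 88.3 and 43.5 CPM and Icam1 at 157 and 54.1 CPM. Committed progenitors, marked by Pparg, Fabp4 and Col15a1 (2379 and 1300 cells), had Nfkbia at 1187 and 497 CPM, Nfkbiz at 691 and 323 CPM, Tnfaip3 at 146 and 63.4 CPM and Icam1 at 279 and 139 CPM. Vcam1 stood at 70.2 and 46.9 CPM in interstitial and at 161 and 159 CPM in committed progenitors. The kinds were mixed in other proportions in the libraries, and with each kind weighted equally the log2 ratio of Vcam1 in progenitor-gated cells was -0.0035 instead of 0.25.

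Detection told the same of single cells. After thinning to 2000 UMIs, 75.2% (73.7% to 76.6%) of 3414 knockout and 51.8% (49.8% to 53.7%) of 2529 wild-type progenitor-gated cells had a UMI of Nfkbia. For Icam1 the shares were 33.2% and 16.2%, for Nfkbiz 58.0% and 33.8%, and for Tnfaip3 19.0% and 11.3%. Unthinned, they were 90.6% and 80.3% for Nfkbia and 67.8% and 40.7% for Icam1, at median depths of 10411.5 and 7119 UMIs. Thinned erythroid-gated cells had a UMI of Nfkbia in 12.4% (knockout) and 45.2% (wild type), and of Icam1 in 1.03% and 4.40%. The wild-type share of Tnfaip3 in progenitors was below the erythroid 13.2% and was not told apart from background by this measure. Its level of 55.0 CPM lay below the erythroid 92.5 CPM, and free RNA was estimated at 33.5% of it. The wild-type share of Nfkbia, 51.8%, was just above the erythroid interval of 40.3% to 50.2%.

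**Figure D4:**
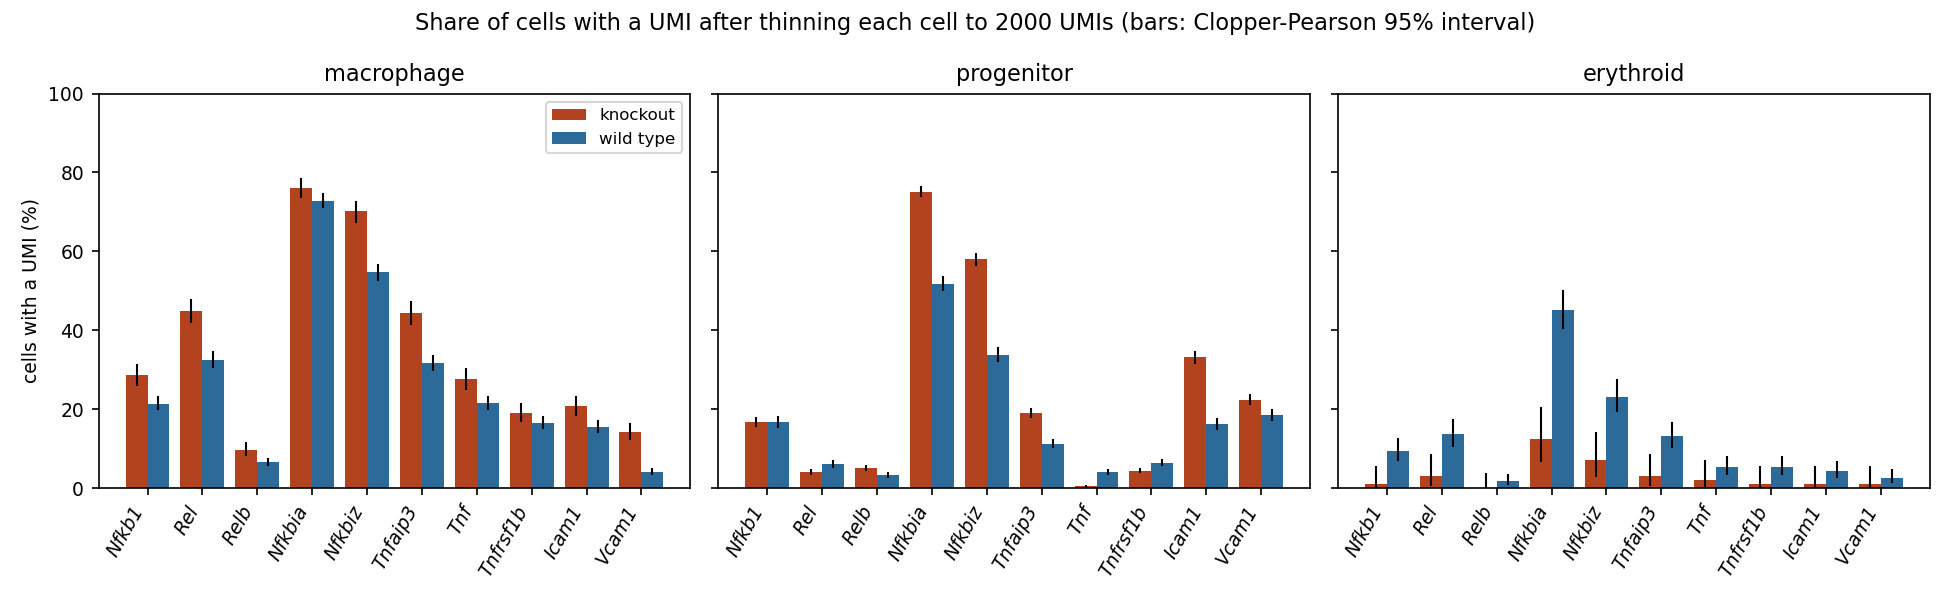
Share of cells with at least 1 UMI of each gene (percent) after thinning each cell to 2000 UMIs, in macrophage-gated, progenitor-gated and erythroid-gated cells, knockout in red, wild type in blue, with Clopper-Pearson 95% intervals. In progenitors the knockout bar of Nfkbia (75.2%) stands above the wild-type bar (51.8%), and in the erythroid background the order is the opposite (12.4% and 45.2%).

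Other pathway genes in progenitor-gated cells went both ways. Of 51 listed genes with enough UMIs, 11 were higher past the limit and 10 lower, beside 3.18% and 7.92% of all genes, with a median log2 ratio of 0.01. The higher ones included Cxcl10 at 51.4 and 7.57 CPM (log2 2.76, 2.52 to 3.02), Zfp36 at 3187 and 1145 CPM (log2 1.48), Birc3 at 105.6 and 50.3 CPM (log2 1.07) and Bcl3 at 60.8 and 33.9 CPM (log2 0.84). Nfkb2, the partner of Relb, was at 43.9 and 29.0 CPM (log2 0.60, 0.45 to 0.74) and Rela at 85.7 and 61.3 CPM (log2 0.48). The kinase Ikbkb was at 25.1 and 33.2 CPM, and 0 of 5 kinases were past 1.5-fold in either direction. The lower ones included Itgam, an integrin chain of myeloid cells, at 3.18 and 17.0 CPM (log2 -2.41), Tnip3, a partner of A20, at 6.86 and 23.7 CPM (log2 -1.79) and Nfkbid at 4.33 and 11.5 CPM (log2 -1.42). Macrophage check genes moved the same way, at 101 and 292 CPM, and their part in these lower levels was not tested.

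Immediate early genes were higher in the same cells. The 8 listed above summed to 25139 CPM in knockout and 16255 CPM in wild-type progenitor-gated cells (log2 0.63), and 4 of the 8 were past the limit, among them Fosb at 3688 and 2035 CPM (log2 0.86). Their part in the levels of Nfkbia, Nfkbiz and Tnfaip3 was not tested. Within cells of 4000 to 12000 UMIs (2158 and 1977 cells) the log2 ratios were 1.27 for Nfkbia, 1.30 for Nfkbiz, 1.39 for Tnfaip3 and 1.29 for Icam1, close to those over all depths.

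Lymphocytes and type 1 dendritic cells had few ratios past the limit. In T-gated cells 0 of 9 members with enough UMIs were at least 1.5-fold higher and 1, Tnf, was lower (all genes: 5.89% of 8003 higher, 11.8% lower). Tnfaip3 stood at 595 and 429 CPM (log2 0.47, 0.39 to 0.55), whereas Nfkbia was at 283 and 424 CPM (log2 -0.58, -0.68 to -0.49). Natural killer-gated cells had 0 of 8 higher and 3 lower (all genes: 10.3% and 9.43% of 4923). Tnfaip3 was at 542 and 384 CPM there (log2 0.50, 0.32 to 0.68), Nfkbia at 236 and 429 CPM (log2 -0.86, -1.08 to -0.64) and Nfkbiz at 75.4 and 132 CPM (log2 -0.81, -1.21 to -0.41). Of these 4 ratios of Tnfaip3 and Nfkbia in both lymphocyte types, only that of Nfkbia in natural killer-gated cells was past the 1.5-fold limit. The wild-type Nfkbia levels were near the 353 CPM of erythroid-gated cells. Free RNA was estimated at 28.7% (knockout) and 32.8% (wild type) of the Nfkbia level in T-gated cells. In natural killer-gated cells it was estimated at 35.3% and 30.8% of the Nfkbia level and at 58.7% and 43.0% of the Nfkbiz level. Over all alternatives, subtraction of free RNA among them, the log2 ratio of Nfkbia ran from -0.74 to -0.50 in T-gated cells. In natural killer-gated cells it ran from -0.96 to -0.69. Beyond this, the part of free RNA in the ratios was not tested. Immediate early genes were lower too, summing to 3432 and 4746 CPM in T-gated (log2 -0.47) and to 3612 and 5092 CPM in natural killer-gated cells (log2 -0.50), and their part was not tested either.

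B-gated cells had 0 of 9 members higher and 1 lower (all genes: 13.6% and 14.5% of 7096). Rel stood at 485 and 471 CPM (log2 0.04, -0.06 to 0.15), and Nfkb1 at 116 and 82.2 CPM (log2 0.50, 0.26 to 0.74). In type 1 dendritic cells 1 of 9 was higher and 1 lower (all genes: 4.68% and 11.5% of 5194). Icam1 was at 81.7 CPM (67.7 to 97.7) and 51.2 CPM (40.6 to 63.7), a log2 ratio of 0.67 (0.25 to 1.10), and Rel at 409 and 314 CPM (log2 0.38, 0.20 to 0.55). Nfkbia, Nfkbiz and Tnfaip3 had log2 ratios of -0.10, -0.42 and -0.46 in these cells. The pathway lists gave 5 higher and 8 lower of 60 in T-gated, 7 and 7 of 41 in natural killer-gated, 5 and 9 of 53 in B-gated and 2 and 4 of 43 in type 1 dendritic cells.

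Tnf was lower in the knockout in each of the 5 larger gates besides the macrophage and erythroid ones. It stood at 4.76 and 16.2 CPM in progenitor-gated cells (log2 -1.77, -2.04 to -1.49), at 4.11 and 23.8 CPM in B-gated (log2 -2.53, -3.64 to -1.59) and at 7.37 and 30.0 CPM in natural killer-gated cells (log2 -2.02, -3.28 to -0.91). T-gated cells had 20.1 and 34.3 CPM (log2 -0.77, -1.12 to -0.43) and type 1 dendritic cells 14.98 and 24.3 CPM (log2 -0.70, -1.53 to 0.10). These levels were at, near or below those of erythroid-gated cells, 13.6 and 34.4 CPM, and were not told apart from background by this measure. Free RNA alone was estimated at 42.4% to 51.0% of the wild-type level in these 5 gates. In the knockout it was estimated at 14.1% (type 1 dendritic) to 80.2% (B-gated) of the level. Macrophage check genes were lower in the knockout in all 5 gates too, at 101 to 643 CPM against 292 to 713 CPM. In B-gated cells, for example, they were at 103 and 333 CPM. Their part in the Tnf levels was not tested. Small gates went both ways for Tnf. The knockout was higher in monocytes (73.4 and 48.2 CPM), blood endothelial (50.5 and 24.9 CPM) and mast cells (353 and 196 CPM). It was lower in type 2 dendritic (35.4 and 93.0 CPM) and mesothelial cells (1.99 and 10.5 CPM). Each of these levels rested on 1 to 56 UMIs.

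Scaling moved the split of calls over all genes. Median-of-ratios scaling set the log2 ratio taken as no difference at -0.13 in macrophage-gated, -0.14 in progenitor-gated and 0.11 in B-gated cells, so ratios measured from there move by that much the other way. The share of calls that were higher in the knockout then went from 38.6% to 63.7% in macrophage-gated and from 28.7% to 51.6% in progenitor-gated cells, and from 48.4% to 35.3% in B-gated cells. With TMM scaling it went from 28.9% to 46.5% in type 1 dendritic cells. No member past 1.5-fold changed direction under either scaling in any of the 6 gates.

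For each member the genes with the most similar pattern were sought over 14 values, the 7 larger gates in both libraries, among 5279 genes at a mean of 20 CPM or more. Values of 1 library share its depth and free RNA, and values of 1 gate share a cell type, so the correlations (Pearson's r of log2 CPM with 10 added) only describe. Tnf lay closest to Il1rn (r = 0.988), Clec10a (0.986) and C1qc (0.981), of which C1qc is a gate gene of macrophages and Clec10a of type 2 dendritic cells. Rel lay closest to Ncf4 (0.972), Map4k1 (0.954) and Ptpn6 (0.951). Among the genes nearest to Nfkbiz were Noct (0.988) and Tnfaip2 (0.954), itself on the list of brakes. The stromal and macrophage pattern of Vcam1 was nearest to C4b (0.976), Ifi204 (0.967) and Rcan1 (0.965), and that of Icam1 to Myd88 (0.937), Ifrd1 (0.930) and Tmed7 (0.924). Tnfaip3 resembled Pgm2l1 (0.930), Ttc39b (0.923) and another member, Tnfrsf1b (0.930). For Tnfrsf1b they were Dgkz (0.966), Slc9a3r1 (0.963) and Casp8 (0.959). Nfkb1 was nearest to Chd4 (0.975), Morf4l1 (0.975) and Rbm7 (0.974), Relb to Irf2bp2 (0.977), Pim1 (0.963) and Hnrnph2 (0.957), and Nfkbia to Wsb1 (0.962), Zfand5 (0.959) and Tuba1c (0.956).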

How the data were processed

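Both libraries, 1 per genotype, were analysed from the matrices of raw UMI counts per gene and barcode that the authors deposited. Cell Ranger 5.0.0, Seurat 4.1.1 and the build mm10 are listed, without their roles, in the submitters' processing notes. The matrices held 10631 barcodes and 87015918 UMIs (knockout) and 15555 and 75436677 (wild type). A barcode was kept from 500 UMIs and 200 genes upward with mitochondrial UMIs of 20% or less. A gate asked for 3 or 4 of its marker genes, for a summed level per 10000 UMIs (50 for macrophages, 150 for progenitors) and for markers of other lineages under a set part of theirs. Gate levels were set after marker distributions were seen. No doublet caller was run: cells with markers of a second lineage were left out, and doublets of 1 type remain. Within 20% of the cut for lipid-associated macrophages lay 11.6% of knockout and 14.3% of wild-type macrophages, and 9.91% and 7.63% near the resident cut. A description field of the labels names another tissue than fat.

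UMIs were summed per gate and library and divided by the gate's total (CPM). Levels have exact Poisson intervals, ratios exact conditional ones and shares Clopper-Pearson ones (scipy 1.17.1). Free RNA was taken as the median, over check genes of other lineages, of the gate's level over that of the whole library. All 10 members were named in each gate with at least 100 cells in both libraries, and of each other pathway list the gene with the most UMIs or the largest ratio could be named. The members, lists and gates were chosen with earlier results of these data known, and the motifs after the members' promoters were seen. The ratio was checked on simulated data. Gene positions are from GENCODE M21 (GRCm38). Alternatives were other scalings, cell filters, gate thresholds, limits of fold and level, weights of kinds, thinning, subtraction of free RNA and, added after the depths were seen, cells of 4000 to 12000 UMIs. Of the genes most like a member in pattern, 1 is not reported here.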

Additional observations from a re-analysis of the deposited data

Results flagged for a closer look

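The log2 ratio of knockout over wild type had opposite signs in different cell types for 3 members, counting ratios past the 1.5-fold limit. The difference between cell types was not tested in any of them, since each genotype is 1 library. Nfkbia, the cytoplasmic inhibitor, was at 1.30 in progenitor-gated and -0.86 in natural killer-gated cells. Nfkbiz, its nuclear relative, was at 1.31 in progenitor-gated, 0.81 in macrophage-gated and -0.81 in natural killer-gated cells. Tnf was at 0.585 in macrophage-gated cells, and at -0.70 in type 1 dendritic, -0.77 in T-gated, -2.02 in natural killer-gated, -2.53 in B-gated and -1.77 in progenitor-gated cells. In the gates named here other than the macrophage gate, Tnf was at, near or below the erythroid level in both libraries. For Nfkbiz in natural killer-gated cells, free RNA was estimated at 58.7% of the knockout and 43.0% of the wild-type level. The wild-type level there, 132 CPM, lay below the erythroid 141 CPM. For Nfkbia in these cells the free RNA estimates were 35.3% and 30.8%.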

How the results depend on the processing

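Of 19 member ratios past 1.5-fold, taken under each alternative that gave a value (202 values), 201 kept their direction. The exception was Tnf in type 1 dendritic cells, at a log2 ratio of 0.081 with free RNA subtracted. In macrophage-gated cells the count of 7 higher members was 4 with doubled gate thresholds, 1 at a fold limit of 2, 3 in cells of 4000 to 12000 UMIs, 5 with kinds weighted equally or without mitochondrial and ribosomal genes, 6 with thinning, and 8 with either scaling or free RNA subtracted. In type 1 dendritic cells the 1 higher member became 0 with thinning, at a fold of 2 and at 4000 to 12000 UMIs, although Icam1 kept log2 ratios of 0.59 with thinning and 0.89 at 4000 to 12000 UMIs and only its UMIs were too few. The 1 lower became 2 with the mean of per-cell CPM, with a cap on UMIs per cell and without the CPM limit. It became 0 with free RNA subtracted or at a fold of 2, and 5 at 4000 to 12000 UMIs (27 and 135 cells). In T-gated cells 0 higher became 1 with the mean of per-cell CPM or thinning. There 1 lower became 2 without mitochondrial and ribosomal genes, with the mean of per-cell CPM, thinning, a stricter cell filter, with a cap on UMIs per cell and without the CPM limit, 0 with free RNA subtracted or at a fold of 2, and 3 at 4000 to 12000 UMIs. In natural killer-gated cells 0 higher became 1 with thinning, doubled thresholds or free RNA subtracted, and 3 lower became 1 at a fold of 2. In B-gated cells 0 higher became 1 with free RNA subtracted, and 1 lower became 2 with median-of-ratios scaling, without mitochondrial and ribosomal genes, with the mean of per-cell CPM, with thinning and without the CPM limit. In progenitor-gated cells 1 lower became 2 without mitochondrial and ribosomal genes, with the mean of per-cell CPM, with thinning and at 4000 to 12000 UMIs, and 0 with free RNA subtracted, where Tnf kept a log2 ratio of -2.15 but had too low a level. The 4 higher became 5 with either scaling, thinning or free RNA subtracted. The cause of the other changes was not tested. Over all genes, 611 differed at least 1.5-fold in macrophage-gated cells, 842 in type 1 dendritic, 1417 in T-gated, 973 in natural killer-gated, 1999 in B-gated and 921 in progenitor-gated cells. At a fold of 2 they were, in that order, 183, 271, 692, 372, 818 and 344, and without the CPM limit 2591, 2290, 3199, 2542, 3673 and 3315. No paired analysis was possible because each genotype is 1 library. Among the larger gates, Vcam1 outside progenitor-gated and macrophage-gated cells and Tnf outside macrophage-gated cells had levels at, near or below the erythroid background. The part of depth in this was not tested.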

Other observations

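Among T-gated cells, the 24 knockout and 17 wild-type regulatory T cells, taken by a Foxp3 UMI, held 858 and 762 CPM of Nfkbia, against 205 and 309 CPM in CD8 T cells (381 and 399 cells). Their Nfkbiz was at 316 and 309 CPM, against 80.3 and 106 CPM in CD8 T cells, and their Rel at 297 CPM (47 UMIs) and 166 CPM (15 UMIs). Tnfaip3 varied less over T cell kinds, from 521 to 732 CPM in the knockout and from 390 to 547 CPM in the wild type. Mesothelial cells (40 and 48), the lining of the fat pad, held 965 and 506 CPM of Nfkbia and 183 and 129 CPM of Icam1.

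Cells that took no gate carried a part of each member's UMIs, from 16.4% for Vcam1 to 32.8% for Rel in the knockout library and from 23.0% for Vcam1 to 38.7% for Rel in the wild-type library. These cells made up 27.2% and 47.5% of those that passed the filters, at median depths of 2232 and 1983 UMIs.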
